A study of Mus musculus with 2 samples.

Results

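Members of the Wnt signalling pathway were compared between the Pax6-/- and wild type cerebral cortex of mouse embryos at embryonic stage E14.5. The group consists of the ligand gene Wnt7b, the receptor genes Fzd2 and Fzd9, the secreted antagonist genes Sfrp1 and Sfrp2, the Dickkopf family gene Dkk3, and the feedback target Axin2. It was formed by taking every probe set whose only gene symbol in the platform annotation is one of these 7 names. Each gene had 1 probe set, so the group is 7 of 8252 named genes. None of the 7 probe set names carries the suffix that marks shared probes (0 of 7).

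Both groups came from embryos of the NMRI strain: homozygous mutants (Pax6-/-) of the gene for Pax6, a transcription factor of cortical progenitors, and wild type embryos. No other allele or agent is named for either group, and the labels do not name the Pax6 allele. RNA was taken from 3 mutant and 3 wild type embryos according to the design text, whereas 1 array of total RNA stands for each genotype here, and pooling is neither stated nor denied. With 1 array per genotype there is no replicate check and no test between genotypes, so the values below describe these 2 arrays.

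Wnt proteins bind Frizzled receptors together with the coreceptors Lrp5 and Lrp6, which stabilises beta-catenin and lets it act on target genes with the Tcf and Lef transcription factors. Sfrp proteins bind Wnts outside the cell, and Axin2, itself switched on by beta-catenin, feeds back on the pathway as a scaffold of the complex that degrades beta-catenin. In the embryonic cortex Wnt signalling is strong near the dorsal midline and keeps progenitors dividing, while Sfrp2 marks the antihem at the border between pallium and subpallium. Earlier work in mouse embryos linked Pax6 to the expression of Sfrp2 and Wnt7b in the developing central nervous system.

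The targeted gene, Pax6, had a signal of 447 on the Pax6-/- array and 1169 on the wild type array, a log2 ratio of −1.29. Its 1 probe set could lie outside the mutated stretch, whose position is unknown, so this is no firm check of the labels. The median signal was 283.7 on the Pax6-/- array and 237.3 on the wild type array. Signals are MAS5 intensities, the brightness summary of a probe set on a linear scale. Log2 ratios are Pax6-/- over wild type, after adding a pseudocount of 81.5 to each signal and centring on the median, so they understate differences of dim genes. The signal filter lay at about 166 and kept 5589 genes. As a technical measure of error, log2 ratios from different probe sets for 1 gene spread by 0.72 at mean signals below 472, by 0.54 between 472 and 832, and by 0.38 above that. Differences between embryos are not part of this spread.

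In these samples Axin2 and Dkk3 were higher on the Pax6-/- array, Fzd2 and Fzd9 were lower by less than 2-fold, and Wnt7b, Sfrp1 and Sfrp2 were close on both arrays. Of the 7 genes, 2 were at least 2-fold higher, where 5.05% of all 5589 genes were, and 0 were at least 2-fold lower, where 5.46% were. The median log2 ratio of the 7 was −0.21, beside −0.02 over all genes above the filter, and their mean was 0.16. All 7 passed the filter, but Axin2 and Dkk3 passed only through their Pax6-/- signals, since both wild type signals lay below the filter level. Genes that passed in this way had to be higher in the mutant: 417 genes had a wild type signal below the level, and 44.8% of them were at least 2-fold higher. RNA of whole tissue was measured, so fewer cells of a type and less RNA per cell cannot be told apart.

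**Figure D1:**
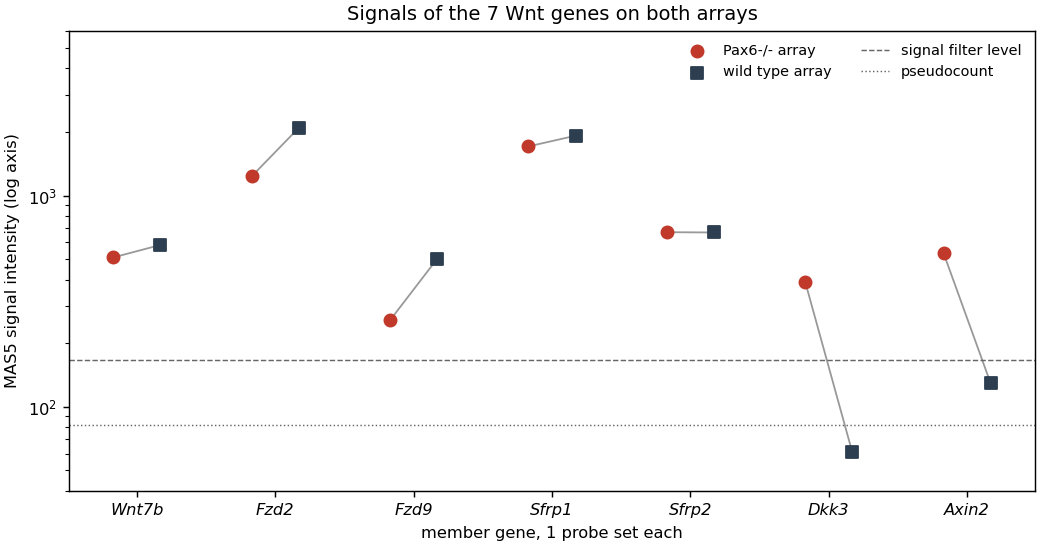
MAS5 signal intensity (log axis) of the 7 Wnt genes, 1 probe set each, on the Pax6-/- array (circles) and the wild type array (squares); the dashed line is the signal filter level and the dotted line the pseudocount. Axin2 and Dkk3 lie above the filter level on the Pax6-/- array, at 532 and 389, and below it on the wild type array, at 129 and 60.8.

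Wnt7b encodes a secreted ligand that cells of the developing forebrain make, and that also acts on brain blood vessels. Its signal was 509 on the Pax6-/- array and 584 on the wild type array. The 2 arrays thus stood close together, with a log2 ratio of −0.22, smaller than the technical spread of 0.54 at this signal. Its paralog Wnt7a, named after its values were seen, had 99.1 on the Pax6-/- array and 246 on the wild type array and lay below the filter on average.

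Both receptor genes were dimmer on the Pax6-/- array. Fzd2, a Frizzled receptor of many embryonic tissues, had a signal of 1234 on the Pax6-/- array and 2092 on the wild type array. This is a log2 ratio of −0.77, or 1.71-fold lower, where the technical spread is 0.38. Among genes of the same high signal range, 5.40% had a ratio at least as low. Fzd9, a Frizzled receptor gene known from neural progenitors and hippocampus, had 257 on the Pax6-/- array and 501 on the wild type array. Its log2 ratio of −0.83, or 1.78-fold lower, was a little larger than the technical spread of 0.72, and 12.2% of genes in its low signal range had a ratio at least as low. The log2 ratios of Fzd2 and Fzd9 differed by 0.06, where the combined technical spread of both is 0.81. At a threshold of 1.5-fold, these 2 of the 7 genes were lower, where 15.1% of all genes were.

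The Sfrp genes encode soluble proteins with a Frizzled-like cysteine-rich domain. Sfrp1 is known from progenitors of the dorsal telencephalon. Its signal was 1709.6 on the Pax6-/- array and 1920.0 on the wild type array, with a log2 ratio of −0.21 at a technical spread of 0.38. Sfrp2, the antihem marker, had 670.6 on the Pax6-/- array and 668.5 on the wild type array. The 2 Sfrp2 signals differed by 2.09 units. Centring on the median turned this into a log2 ratio of −0.04, and the sign was positive under 2 of 9 alternative settings, so no direction is given. An array of whole cortex carries no position, and a gain in one territory beside a loss in another was not measured.

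Dkk3 belongs to the Dickkopf family of secreted proteins, whose member Dkk1 blocks the coreceptor Lrp6; the action of Dkk3 itself on Wnt signalling is less settled. Its signal was 389 on the Pax6-/- array and 60.8 on the wild type array. The wild type signal lay under the pseudocount, at percentile 22.1 of its array, and the Pax6-/- signal at percentile 59.8 of the mutant array. The log2 ratio was 1.68, or 3.20-fold higher, at a technical spread of 0.72, and the plain ratio of the deposited signals was 6.40. Its size rests on a dim wild type signal and on the pseudocount. Of the 417 genes that likewise had a wild type signal below the filter level, 8.87% had a ratio at least as high. Its log2 ratio differed from that of Sfrp1 by 1.89, against a combined technical spread of 0.81. Since Dkk3 passed the filter only through its Pax6-/- signal, this gap adds no support to its ratio.

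Axin2 had a signal of 532 on the Pax6-/- array and 129 on the wild type array. The log2 ratio was 1.499, or 2.83-fold higher, at a technical spread of 0.72, and the plain ratio of the signals was 4.13. Among the 417 genes with a wild type signal below the filter level, 16.8% had a ratio at least as high. The wild type signal lay at percentile 36.2 of its array, and the Pax6-/- signal at percentile 68.5. The difference in log2 ratio between Axin2 and the ligand gene Wnt7b was 1.72, against a combined technical spread of 0.90. Axin2 passed the filter only through its Pax6-/- signal, so this difference adds no support to its ratio.

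**Figure D2:**
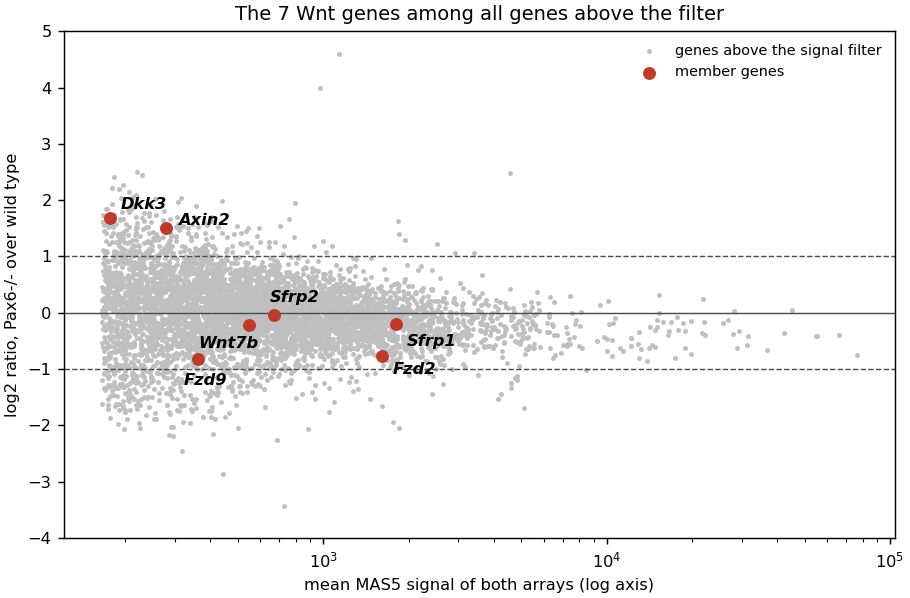
Log2 ratio, Pax6-/- over wild type, against mean signal (log axis, averaged on the log scale) for 5589 genes above the filter (grey points), with the 7 Wnt genes in red; dashed lines mark 2-fold. Dkk3 at 1.68 and Axin2 at 1.499 lie at low mean signal, where the grey points scatter most. Fzd2 at −0.77 lies among the lower points of its signal, where 5.40% of genes had a ratio at least as low.

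RefSeq promoter windows (GRCm38.p6) matched 3 of the 7 genes, Axin2, Fzd9 and Sfrp2. The 250 bases before the start site are shown for the feedback target Axin2, which was higher, and for the receptor gene Fzd9, which was lower. Fzd2, which was also lower, had no window. A link between these sequences and the ratios was not tested. Axin2 lies at chr11:108920099-108920348 on the plus strand and Fzd9 at chr5:135251048-135251297 on the minus strand. Both are written 5′ to 3′, and capitals mark the GC box GGGCGG.
Axin2: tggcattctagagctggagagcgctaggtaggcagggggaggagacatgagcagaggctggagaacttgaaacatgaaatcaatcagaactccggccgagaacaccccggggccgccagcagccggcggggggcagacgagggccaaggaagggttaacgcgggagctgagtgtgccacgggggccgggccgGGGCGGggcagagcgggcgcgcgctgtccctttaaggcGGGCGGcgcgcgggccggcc
Fzd9: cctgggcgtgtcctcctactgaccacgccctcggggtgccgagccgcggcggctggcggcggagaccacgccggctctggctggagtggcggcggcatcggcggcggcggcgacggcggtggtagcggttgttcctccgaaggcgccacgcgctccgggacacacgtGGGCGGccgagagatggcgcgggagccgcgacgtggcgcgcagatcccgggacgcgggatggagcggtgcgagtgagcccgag

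The Axin2 window was 69.2% G or C with 24 CpG pairs, and the Fzd9 window 76.4% with 42 CpG pairs, while the median over 32851 promoter windows of the same length was 52.4% with 6 CpG pairs. The Sfrp2 window (chr3:83766071-83766320, plus strand) was 63.6% G or C with 16 CpG pairs. Of all windows, 11.98% had at least as many CpG pairs as Axin2 and 0.86% at least as many as Fzd9. Searched on both strands, the GC box GGGCGG occurred at 2 places in Axin2, starting 58 and 20 bases before the start site, at 1 place in Fzd9, starting 83 bases before it, and at none in Sfrp2; 32.7% of all windows hold it. The Tcf/Lef motif was searched as CTTTG followed by AA, AT, TA or TT, versions that cannot overlap one another on 1 strand. It was in none of the 3 windows and in 14.8% of all windows. These letters describe a short window only.

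The rest of the pathway was read from 8 lists by role, 137 genes in all, of which 85 were on the array and 56 above the filter. Past 2-fold, 4 of the 56 were higher and 2 lower, or 7.14% and 3.57%, near the shares of all genes, and 36 (64.3%) had a ratio below 0, where 51.6% of all genes did. The median was −0.17, beside −0.02 over all genes. It shrank to −0.08 with either quantile or loess scaling, −0.09 with no filter and −0.10 with the 60th-percentile filter. With the 7 genes left out, 2 of 49 were higher past 2-fold and 2 were lower, and the median was −0.17.

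Of 5 ligand genes above the filter, 4 had ratios above 0, where 48.4% of all genes did, and Wnt7b was below. Their median was 0.51. Wnt3, a ligand gene of the early embryo and nervous system, had a signal of 582 on the Pax6-/- array and 151 on the wild type array, a log2 ratio of 1.47 at a technical spread of 0.72. Its wild type signal, like those of Axin2 and Dkk3, was below the filter level. Wnt5b, a ligand best known outside the beta-catenin branch, was at 0.36, and its wild type signal of 144 was also below that level. Wnt3 and Wnt5b thus passed only through their Pax6-/- signals and had to be higher in the mutant. Without the filter, 14 ligand genes were measured, 6 above 0 and 8 below, and the median was −0.05. With the 60th-percentile filter only Wnt7b was left, at −0.16. Of the genes for Wnt handling at the cell surface, the glypican gene Gpc4 was at −0.74 and Gpc3 at 0.02, with signs for Gpc3 that differed between scalings.

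Of 10 receptor and coreceptor genes above the filter, 8 had ratios below 0, where 51.6% of all genes did, with a median of −0.41. The 8 included Fzd2 and Fzd9, which are among the lowest of the list and were chosen with earlier results known. With both left out, the middle values were Fzd7 at −0.24 and Fzd1 at −0.19, named for that place. Without centring 7 of the 10 receptor genes were below 0. The median was −0.46 after quantile scaling and −0.47 after loess scaling. With no filter, 10 of 16 were below 0 and the median shrank to −0.18, and with the 60th-percentile filter 4 of 7 were below 0. Some second probe sets went the other way, named after their values were seen. Ryk was at −0.02 with its other probe set at 1.01, and Fzd3 at 0.30 with its other at −0.53. Lrp6 was at −0.59 with its other probe set, below the filter, at 1.15. Ptk7, a receptor-like protein of planar polarity, was at −0.80, next to Fzd9 and Fzd2, with signals of 215 on the Pax6-/- array and 420 on the wild type array. Against these, Fzd4, the Frizzled receptor that brain endothelium uses, had a signal of 1214 on the Pax6-/- array and 544 on the wild type array, 2.01-fold higher. This probe set carries the suffix for shared probes, and the 2 others, below the filter, were at 0.80 and 0.00. Among secreted modulators, 4 of 12 measured genes passed the filter. Besides Sfrp1, Sfrp2 and Dkk3 this was Apcdd1, a membrane inhibitor of Wnt signalling and a target of it, at −0.59.

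**Figure D3:**
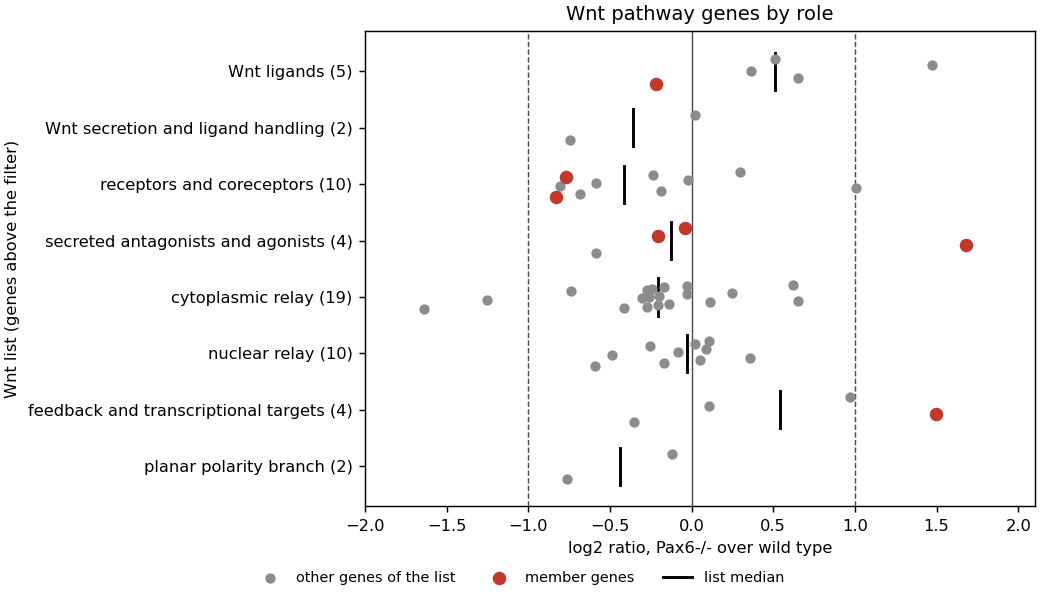
Log2 ratio, Pax6-/- over wild type, of the 56 Wnt pathway genes above the filter in 8 lists by role (number of genes in parentheses); red points are member genes, grey points other genes, black bars list medians and dashed lines 2-fold. Receptor genes lie mostly below 0, with a median of −0.41 that includes Fzd2 and Fzd9, while Axin2 and Dkk3 lie to the right of the other genes of their lists.

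Inside the cell, 15 of 19 cytoplasmic relay genes had ratios below 0, where 51.6% of all genes did. Their median of −0.21 shrank to −0.09 with quantile and −0.08 with loess scaling. With either scaling 12 of 19 were below 0, and with the 60th-percentile filter 10 of 15. Some second probe sets that passed lay far from the first, named after their values were seen. Dvl2 was at −0.14 with its other at 1.26, and Apc2 at −0.31 with its other at −1.24. Btrc, which marks beta-catenin for degradation, had signals of 95.4 on the Pax6-/- array and 452 on the wild type array, 3.11-fold lower. The ratio of its other probe set that passed was 0.14. With a Pax6-/- signal below the filter level, Btrc passed only through its wild type signal and had to be lower. Of 278 genes that passed in this way, 55.4% were at least 2-fold lower. Apc, a scaffold of the degradation complex, had 167 on the Pax6-/- array and 493 on the wild type array, 2.39-fold lower by 1 probe set. Frat1, which binds the kinase Gsk3, was at 0.65. Ctnnb1 (beta-catenin itself), named after its values were seen, had 6008 on the Pax6-/- array and 6909.9 on the wild type array, with a log2 ratio of −0.24. Nuclear relay genes were split, 5 above and 5 below 0, with Ctbp2 at −0.59 (second probe set 0.33) and Tle1, a corepressor, at 0.36. Lef1, likewise named afterwards, was at −0.17. None of these 10 nuclear genes reached 2-fold, 0 of 10.

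Of 4 target genes above the filter, Axin2 passed 2-fold. The G1 cyclin gene Ccnd1 was just short of it at 0.97 and passed in 3 of 9 alternative settings, with signals of 1195 on the Pax6-/- array and 550.5 on the wild type array, and its other probe set was at 0.24. Mycn, a proliferation factor of neural progenitors, was at −0.35, and Jun, named after its values were seen, at 0.11. The list median was 0.54, or 0.36 with the mean over probe sets. That median includes Axin2, which passed the filter only through its Pax6-/- signal. Without Axin2 the middle value is that of Jun. With the 60th-percentile filter, which Axin2 did not pass, the median was 0.17. In the planar polarity branch, the only 2 genes measured were Celsr1, at −0.77, and Celsr2, at −0.12 by its brighter probe set and −0.81 by the other.

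By the distance between their pairs of log2 signals over the 2 arrays, the genes outside the Wnt lists nearest to Axin2 were Sox1, a neural progenitor factor gene, at 523 on the Pax6-/- array and 132 on the wild type array, then Brip1os and Aqp1, at distances of 0.03, 0.04 and 0.05. Nearest to Dkk3 were Insl3, Mrap and Synrg, at distances of 0.05, 0.05 and 0.06. With 2 arrays such likeness says only that the pairs of signals are similar.

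Markers of cells that a cortical dissection can hold were measured on the same arrays. The labelled tissue was checked with 3 cortical neuron markers on the array: their summed signal was 4376 on the Pax6-/- array and 8986 on the wild type array, and Tbr1, which specifies deep-layer neurons, had 2405 on the Pax6-/- array and 5088 on the wild type array. Subpallial markers (7 on the array) summed to 11615 on the Pax6-/- array and 855 on the wild type array. Most of the Pax6-/- sum came from 2 homeobox genes. Dlx1 was at 5982 on the Pax6-/- array and 162 on the wild type array, and Dlx2 at 4180 on the Pax6-/- array and 179 on the wild type array. The 4 subpallial markers above the filter were higher, 3 of them past 2-fold, where 5.05% of all genes were. Of these, Dlx1 and Dlx5 had wild type signals below the filter level. The 3 below the filter, Dlx6, Gad2 and Isl1, had log2 ratios of 0.03, 0.10 and 0.23. Dlx2, Dlx5 and these 3 were named after their values were seen. For 7 markers of the cortical hem and choroid plexus, a source of Wnts, the sums were 1568 on the Pax6-/- array and 1739 on the wild type array, with the ciliogenesis factor gene Foxj1 at 468 on the Pax6-/- array and 691 on the wild type array. The hem ligand gene Wnt3a, named after its values were seen, was below the filter, at 52.6 on the Pax6-/- array and 46.6 on the wild type array. Endothelial markers (9 on the array, 2 of 4 above the filter higher) summed to 2271 on the Pax6-/- array and 1885 on the wild type array, with Eng, the brightest, at 331 on the Pax6-/- array and 695 on the wild type array, against the direction of the sum. Cldn5 and Flt1, named after their values were seen, had log2 ratios of 1.06 and 0.78. The 3 cortical markers were thus dimmer and the subpallial sum higher on the Pax6-/- array, while hem and endothelial sums differed by less. Meningeal markers (12, 5 of 8 higher) summed to 6848 on the Pax6-/- array and 6723 on the wild type array, with Fbln1, the brightest, at 1931 on the Pax6-/- array and 2497 on the wild type array, while 2 other Fbln1 probe sets had ratios of 0.19 and 0.38. Microglial markers (9, 4 of 6 higher, where 48.4% of all genes were) summed to 3652 on the Pax6-/- array and 2279 on the wild type array, with Csf1r at 1284 on the Pax6-/- array and 372 on the wild type array, a log2 ratio of 1.54 beside 0.34 for its second probe set. They went both ways: C1qb was at 1.14 with its other passing probe set at −0.93, and Laptm5 at −1.36, passing only through its wild type signal. C1qb and Laptm5 were named after their values were seen. Erythroid markers (6, 2 of 5 higher) summed to 14154 on the Pax6-/- array and 16577 on the wild type array, with Hba-a1 at 7582 on the Pax6-/- array and 8060.4 on the wild type array. No marker was at 0, the lowest being the mesenchymal factor gene Foxc1, chosen for that, at 8.93 on the Pax6-/- array and 3.78 on the wild type array. The part of these cells in the Axin2, Dkk3, Fzd2 and Fzd9 differences was not tested.

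**Figure D4:**
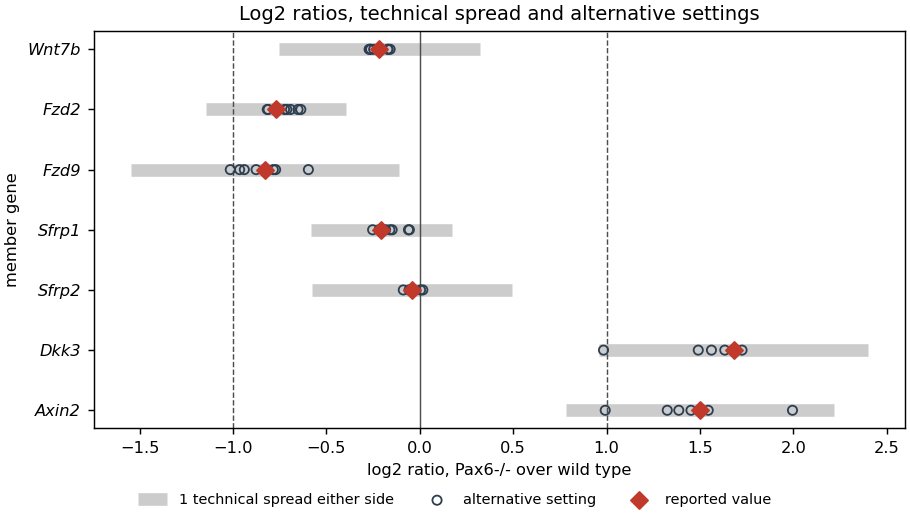
Log2 ratio, Pax6-/- over wild type, of each of the 7 Wnt genes as reported (red diamonds), under the alternative settings that measured it (open circles) and with 1 technical spread either side (grey bars); dashed lines mark 2-fold. Dkk3 and Axin2 stay near or above 2-fold, at 0.98 to 1.73 and 0.99 to 1.996, and Wnt7b, Sfrp1 and Sfrp2 stay within 1 technical spread of 0.

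Over the alternative settings the log2 ratio of Axin2 ran from 0.99 to 1.996 and passed 2-fold in 7 of the 8 that measured it, and that of Dkk3 ran from 0.98 to 1.73 and passed in 6 of 7. Both were just short of it with the larger pseudocount, and neither passed the stricter signal filter. Fzd2 ran from −0.82 to −0.64 and Fzd9 from −1.01 to −0.60, with all 9 values below 0 for both receptors. Fzd9 passed 2-fold in 1 of the 9, without a pseudocount, and the plain ratio of its signals was 1.95-fold lower.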

How the data were processed

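Biotin-labelled cRNA from total RNA was hybridised to Affymetrix arrays, per the labels' protocols. The deposited values are intensities, 1 signal per probe set, and MAS5 is named in the submitters' processing notes; no source used here gives its version or scaling target. Of 12488 probe sets, 10855 had 1 symbol in GEO's platform annotation, 396 several and 1237 none. The pseudocount was the 25th percentile of all signals, the filter the 40th percentile of mean log2 value, and ratios were centred on their median over probe sets above it, removing 0.05. Where several probe sets named a gene, the one with the highest mean log2 value stood for it. The technical spread is the SD of the difference between the 2 brightest probe sets of a gene, over the square root of 2, in 3 equal groups of 896 genes by signal. Depth has no meaning for arrays; their number limits precision.

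Genes named by rule are the 7 members, other Wnt list genes at least 2-fold apart, and the highest and lowest of each list. The rule also takes 3 neighbours each of Axin2 and Dkk3, the brightest marker of each list, and Pax6. Other genes whose values are given were named for those values, as marked where they appear. Members and lists were chosen with earlier results of these data known. Of 137 list genes, 2 names matched no entry of the mouse gene table (GRCm38.p6). The ratios were recomputed without centring, after quantile scaling, after loess scaling (3 iterations, fraction 0.4), with a pseudocount at the 50th percentile or none (then with a floor at the 1st percentile), with a filter at the 60th percentile or none, averaged over probe sets, without suffixes for shared probes, and at thresholds of 1.5-fold and 3-fold. Python 3.11.15, numpy 2.4.6, pandas 2.3.3, statsmodels 0.14.6 and matplotlib 3.10.9 were used.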

Additional observations from a re-analysis of the deposited data

How the results depend on the processing

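The log2 ratios of the 7 Wnt genes moved by less than 1 technical spread under every alternative that measured them, and the signs of 6 did not turn; Sfrp2, near 0, was positive under 2 of 9. Dkk3 had no value without a pseudocount or with the 60th-percentile filter, and Axin2 none with that filter, since their mean signals were then below it. The counts of Wnt pathway genes past 2-fold, 4 higher and 2 lower as reported, were small and moved with the settings. Without a pseudocount 4 were lower, and with the 50th-percentile pseudocount 1 was higher and 1 lower. With no filter 4 were lower, with the 60th-percentile filter 2 were higher and 0 lower, and with the mean over probe sets 1 was lower. At 1.5-fold 8 were higher and 12 lower, and at 3-fold 1 was higher and 1 lower. The cause was not tested beyond what the filter, the threshold and the pseudocount change by construction. No paired analysis was possible because each genotype has 1 array. The number of arrays, and wild type signals of Axin2 and Dkk3 below the filter level, limit what can be said.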

Other observations

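Several Wnt genes below the signal filter on average had unequal signals on the 2 arrays, and they are named here after their values were seen. Wnt6, a ligand gene of epithelia, had a signal of 279 on the Pax6-/- array and 20.5 on the wild type array, and Tnfrsf19 (Troy), a beta-catenin target in other tissues, had 197 on the Pax6-/- array and 66.9 on the wild type array. Wnt10a had 38.1 on the Pax6-/- array and 176 on the wild type array, and the receptor gene Ror2 had 55.8 on the Pax6-/- array and 232 on the wild type array. The other Ror2 probe set, also below the filter, had a log2 ratio of −0.03. Each pair of signals printed here has a value near or below the pseudocount on one of the arrays, and no replicate array bears on it.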
